A study of Mus musculus with 26 samples.

Results

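Interferon-stimulated genes were followed in the ears of mice with MC903-induced dermatitis, as 44 effector genes of the interferon response outside the Oas and Gbp families. The members were listed by symbol, not by a threshold on their values, though earlier results of these data were known. They were read from a table of RNA counts per gene, in which all 44 were found among 57010 identifiers. All 44 passed the filter on low counts, which kept 20167 genes. Each value below is a level in CPM, the counts of a gene relative to its library size after scaling by TMM factors, unless it is called a log2 fold change.

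The samples were 26 ears, 1 from each wild-type female Balb/cAnNRj mouse of 8 weeks, taken as 4 mm punch biopsies on day 9. The groups were MC903+RGRN-305 (n = 8), MC903+Dexamethasone (n = 4), MC903 (n = 8) and vehicle (n = 6). MC903 is calcipotriol, an analogue of vitamin D that evokes a dermatitis resembling atopic dermatitis, and it was put on the right ear at 1 nmol a day for 6 days in every group but vehicle. RGRN-305 is an inhibitor of the chaperone HSP90 and was given topically at 1 mg a day, and dexamethasone is a glucocorticoid and was given topically at 20 nmol a day. The MC903 and vehicle mice received the drug-vehicle, ethanol, in place of a drug. Topical treatment went on daily until day 9, beginning with the challenge, and each drug was sequenced at a single dose and day.

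Depth ranged from 20020975 to 26516232 counts in MC903+RGRN-305 libraries, from 20625369 to 28838836 with MC903+Dexamethasone, from 14311046 to 28036747 with MC903 and from 13695023 to 35130972 with vehicle. Cyp24a1, a target of the vitamin D receptor, had between 1593 and 5306 CPM in every ear given MC903 and at most 0.687 CPM in vehicle ears, as the labels require. Keratinocyte markers (Krt5, Krt14, Krt1, Krt10 and Trp63) were abundant in all ears, with a summed level of 40590 to 53620 CPM with MC903+RGRN-305, 56470 to 63370 CPM with MC903+Dexamethasone, 45020 to 58360 CPM with MC903 and 25750 to 32340 CPM with vehicle. All 5 were called higher in MC903 than in vehicle ears, against 34.5% of all genes.

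Interferons are secreted when a cell meets foreign or misplaced nucleic acid, or, for interferon gamma, when T cells and NK cells are activated. Type I interferons bind a receptor made of Ifnar1 and Ifnar2, whose signal leads to transcription factors binding the interferon-stimulated response element (ISRE) in promoters. Interferon gamma acts on the gamma-activated sequence (GAS), and many interferon-stimulated genes answer to both, so a raised member does not tell which interferon was present. In skin the response is known from defence against viruses and from inflammatory disease such as lupus.

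Promoters are shown because the members were not chosen on sequence, and the ISRE is what many of them have in common. RefSeq windows of the GRCm38.p6 build, from 250 bases before to 50 bases after a start site, were found for 35 of the 44 members, and not for Usp18, Mx1, Mx2, Rtp4, Ifi27l2a, Tor3a, Parp9, Parp14 and Ifi204. The ISRE, searched on both strands as the letters GAAA, any 2 bases and GAAA, was in a window of 14 of these 35 members (40.0%) and of 1079 of 27025 genes with a window (3.99%). The letters TTCNNNGAA of the GAS, read on both strands, were in 5 of 35 members (14.3%) and 9.55% of genes. The stretches of 250 bases before the start site are printed 5′ to 3′ on the gene's strand for 4 members, with ISRE matches in capitals. Isg15 (chr4:156200819-156201068, minus strand) had 3 overlapping matches in a row. Ifit1 (chr19:34640639-34640888, plus strand) had 2 matches read on the opposite strand, and Rsad2 (chr12:26456453-26456702, minus strand) had 1, also read on the opposite strand. Cmpk2 (chr12:26468965-26469214, plus strand), the neighbour of Rsad2 on chromosome 12, had none, and no match says only that these letters are not in this window. The sequences are those of the reference strain, not of BALB/c mice.
Isg15: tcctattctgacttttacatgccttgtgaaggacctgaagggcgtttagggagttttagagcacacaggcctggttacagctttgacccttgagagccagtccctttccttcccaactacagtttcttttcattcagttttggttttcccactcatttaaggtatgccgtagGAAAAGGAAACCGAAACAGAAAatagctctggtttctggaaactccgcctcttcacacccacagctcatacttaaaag
Ifit1: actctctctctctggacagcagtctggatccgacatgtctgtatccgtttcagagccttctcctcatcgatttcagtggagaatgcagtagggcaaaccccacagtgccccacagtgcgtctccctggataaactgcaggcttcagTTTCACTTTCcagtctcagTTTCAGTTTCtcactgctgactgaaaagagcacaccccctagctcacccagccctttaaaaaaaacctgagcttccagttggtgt
Rsad2: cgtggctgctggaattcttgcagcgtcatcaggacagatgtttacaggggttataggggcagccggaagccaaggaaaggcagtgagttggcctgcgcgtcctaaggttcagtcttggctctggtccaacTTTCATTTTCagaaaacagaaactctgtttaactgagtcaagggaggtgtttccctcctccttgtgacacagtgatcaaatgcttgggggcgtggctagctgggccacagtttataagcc
Cmpk2: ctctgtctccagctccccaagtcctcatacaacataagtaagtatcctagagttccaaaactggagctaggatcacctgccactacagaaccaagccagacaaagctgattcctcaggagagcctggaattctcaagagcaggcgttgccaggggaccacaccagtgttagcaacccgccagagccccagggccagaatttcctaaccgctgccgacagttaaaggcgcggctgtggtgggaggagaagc

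All 44 members were higher in MC903 than in vehicle ears, and all 44 were lower with either drug than with MC903 alone. The summed level of the members was 653.7 to 1391 CPM (median 905.2) in MC903+RGRN-305 ears. It was 368.5, 1132, 2802 and 622.7 CPM in MC903+Dexamethasone mice 1 to 4. It was 3133 to 5348 CPM (median 4417) in MC903 ears and 360.2 to 483.6 CPM (median 392.7) in vehicle ears. Thus no ear of a drug group reached the MC903 range in the sum, whereas the lowest dexamethasone ear lay inside the vehicle range and every RGRN-305 ear lay above it. In whole ear tissue, fewer cells of a type and less RNA per cell cannot be told apart.

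**Figure D1:**
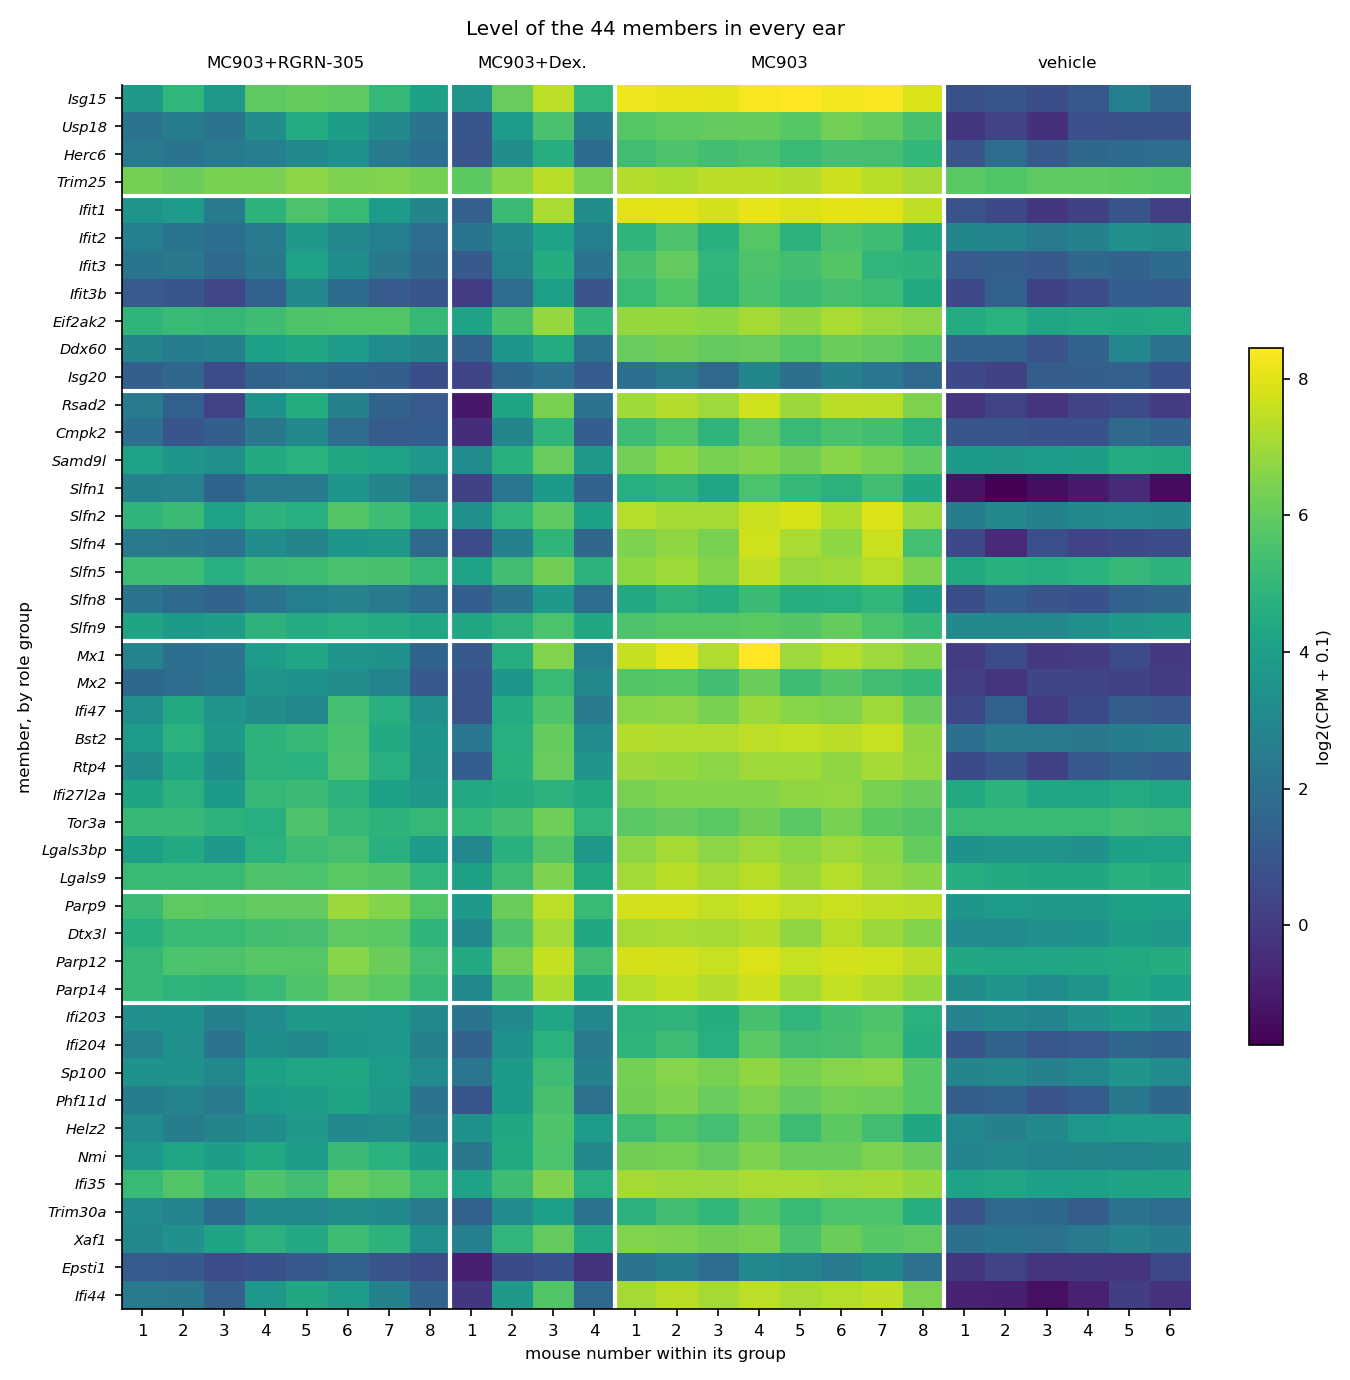
Level of each of the 44 members (lines, by role group) in each of the 26 ears (columns, by group and mouse number), as log2(CPM + 0.1) from dark (low) to yellow (high). Within each line the MC903 ears are brighter than the vehicle ears, although lines differ in level (Trim25 is bright and Epsti1 dark in all groups), and among the 4 dexamethasone columns mouse 3 is brightest in 44 members and mouse 1 darkest in 43.

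The first comparison asks which members the dermatitis raised. In MC903 against vehicle ears, edgeR's quasi-likelihood test with Benjamini-Hochberg adjustment over all genes called 44 of 44 members higher, against a background of 34.5% of all genes called higher. The median log2 fold change of the members was 3.71 (lowest 0.80 for Tor3a, highest 8.03 for Ifi44), beside −0.02 for all genes. A log2 fold change above 1.5 was passed by 41 members, against 7.46% of all genes, and the exceptions were Tor3a, Isg20 and Trim25. For 44 members the lowest MC903 ear was above the highest vehicle ear, which held for 20.9% of all genes in that direction.

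The second comparison asks whether RGRN-305 lowered them. In MC903+RGRN-305 against MC903 ears, 44 members were called lower, against 19.4% of all genes, with a median log2 fold change of −2.37 (from −4.40 for Rsad2 to −0.93 for Tor3a), beside 0.03 for all genes. A fall beyond a log2 fold change of −1.5 was reached by 39 members, against 3.12% of all genes. For 44 members the highest RGRN-305 ear was below the lowest MC903 ear, against 7.18% of all genes.

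The third comparison asks the same of dexamethasone. In MC903+Dexamethasone against MC903 ears, 44 members were again called lower, against 23.3% of all genes, with a median log2 fold change of −2.03 (from −3.61 for Slfn4 to −0.51 for Tor3a), beside 0.00198 for all genes. A fall beyond −1.5 was reached by 34 members, against 5.89% of all genes. Here the ears of 16 members overlapped, and 28 members had every dexamethasone ear below every MC903 ear, against 14.0% of all genes. The overlap came from mouse 3 alone, since without it all 44 members were separated, against 19.0% of all genes, and the median log2 fold change was −2.77. The weakest call was Helz2, with an adjusted p of 0.036, and it was lost without MC903 mouse 2, 4 or 6 and without dexamethasone mouse 1, 2 or 4. Tor3a and Xaf1 were also lost without dexamethasone mouse 1, 2 or 4, Isg20 without mouse 1 or 4 and Dtx3l without mouse 4, which left 40, 41 and 39 calls without mouse 1, 2 and 4. Fitted on the 2 groups alone, the test called 39 members, as Dtx3l, Helz2, Parp14, Tor3a and Xaf1 were lost. Both drug comparisons share the MC903 ears.

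**Figure D2:**
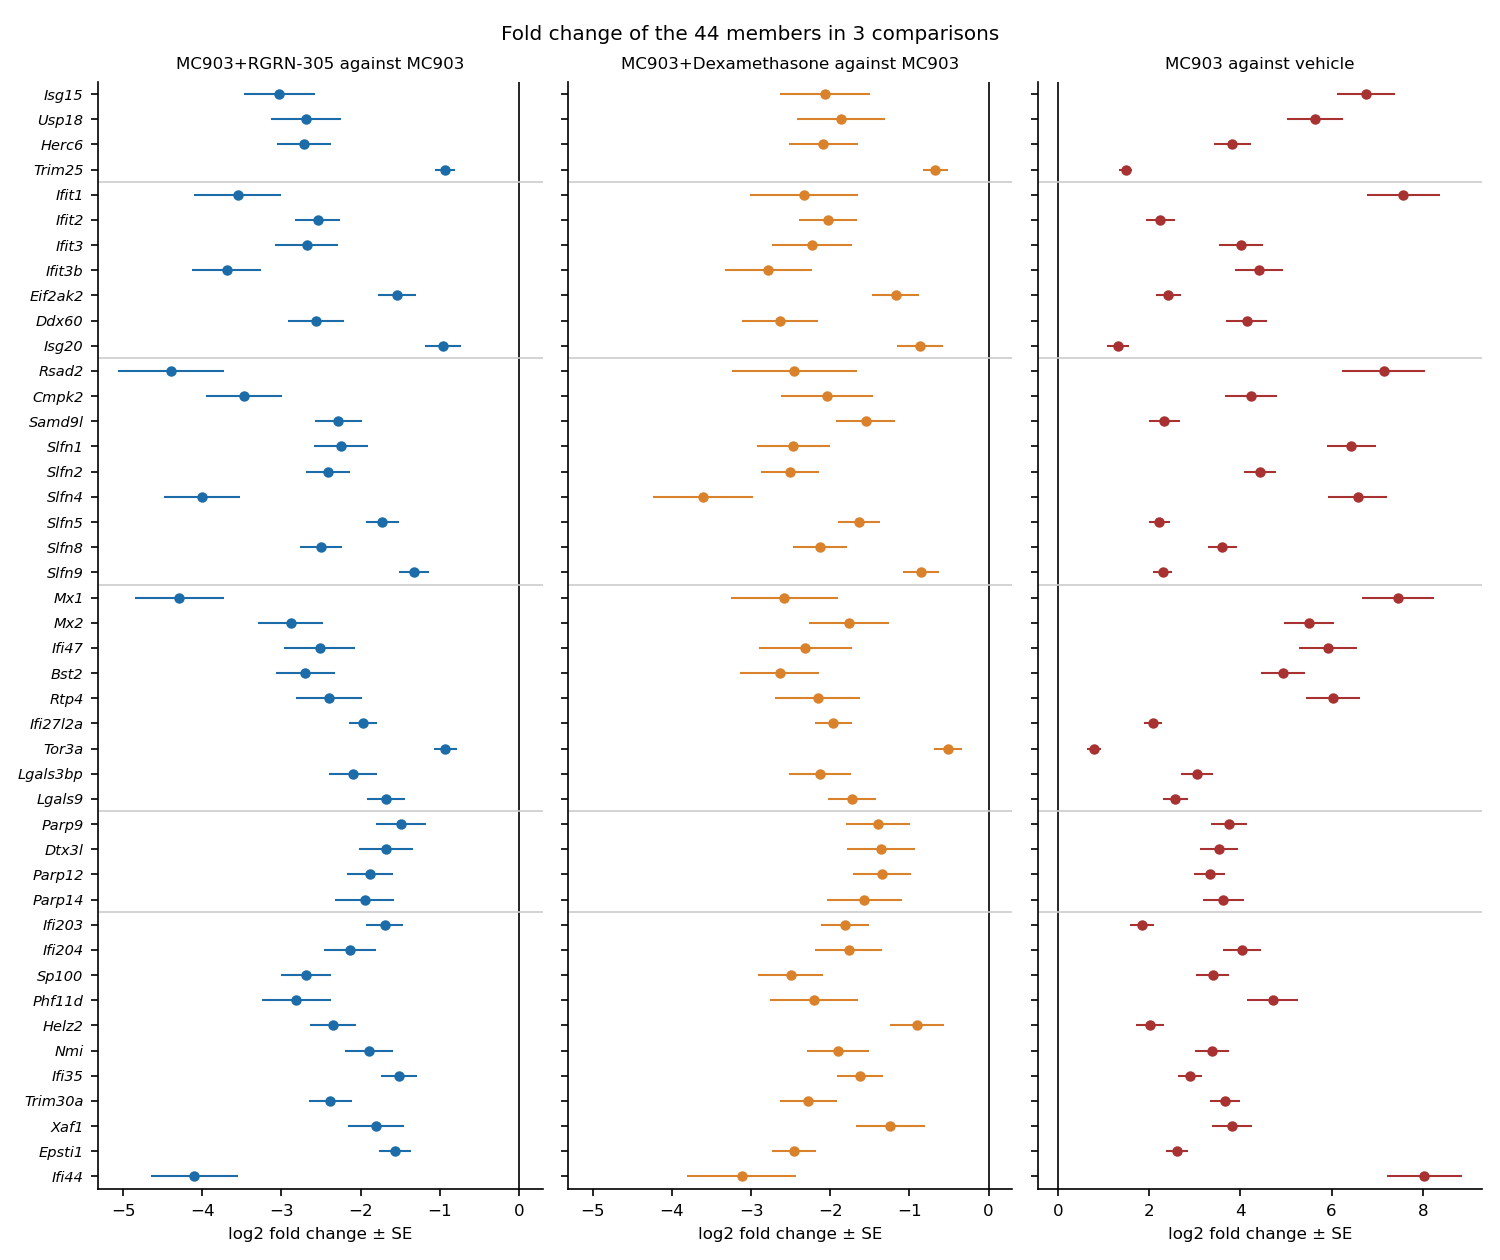
Log2 fold change with its standard error (x axis) of the 44 members (y axis, grouped by role) from the fit over all 26 libraries, for MC903+RGRN-305 against MC903, MC903+Dexamethasone against MC903 and MC903 against vehicle. All points lie below 0 in both drug panels, which share a scale, and above 0 for MC903 against vehicle.

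The ISG15 system tags proteins with the ubiquitin-like Isg15. Its 4 members were Isg15, the protease Usp18, which removes the tag and also restrains the type I receptor, Herc6, the ligase in mice, and Trim25, a ubiquitin ligase of the RNA sensor RIG-I. Isg15 was at 13.4, 31.6 and 65.5 CPM (lowest, median and highest ear) with MC903+RGRN-305, and at 11.5, 66.7, 175 and 31.0 CPM in dexamethasone mice 1 to 4. It was at 234, 296 and 349 CPM with MC903, and at 1.5, 1.92 and 6.23 CPM with vehicle. Every drug ear thus stood between the vehicle and MC903 ranges, and no groups overlapped but those of the 2 drugs. The log2 fold change of Isg15 was −3.02 ± 0.45 (SE) with RGRN-305 and −2.07 ± 0.56 with dexamethasone, each against MC903, and 6.76 ± 0.63 for MC903 against vehicle (edgeR adjusted p = 1.4e-05, 0.0047 and 2.7e-09). Per kilobase of transcript, Isg15 had the highest mean level of the 44 members in MC903 ears, 422 CPM per kb, ahead of Ifi27l2a at 198. Trim25 had a high baseline and moved little, with 69.7, 83.1 and 103 CPM with MC903+RGRN-305, 59.4, 99.5, 163 and 82.8 CPM in the dexamethasone ears, 134, 159.7 and 202 CPM with MC903, and 51.7, 57.7 and 62.4 CPM with vehicle. Its lowest dexamethasone ear lay inside the vehicle range and its highest inside the MC903 range. Trim25 was lower by a log2 fold change of −0.94 ± 0.13 with RGRN-305 and −0.68 ± 0.16 with dexamethasone. Usp18 and Herc6 were lower by −2.69 and −2.71 with RGRN-305 and by −1.86 and −2.09 with dexamethasone.

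RNA-binding and RNA-degrading members numbered 7. The Ifit proteins bind the ends of foreign RNA, Eif2ak2 (PKR) is a kinase that stops translation on double-stranded RNA, Ddx60 is a helicase and Isg20 an exonuclease. Ifit1 was at 5.47, 14.5 and 47.9 CPM with MC903+RGRN-305, and at 2.49, 36.9, 142 and 9.64 CPM in dexamethasone mice 1 to 4. It was at 178, 250.02 and 271 CPM with MC903, and at 0.814, 1.19 and 1.74 CPM with vehicle. The dexamethasone ears of Ifit1 ran from near the vehicle range to near the MC903 range. Its log2 fold change was −3.55 ± 0.55 with RGRN-305 and −2.34 ± 0.68 with dexamethasone, each against MC903, and 7.57 ± 0.81 for MC903 against vehicle (edgeR adjusted p = 2.3e-05, 0.0076 and 2.0e-08). Eif2ak2 was at 29.9, 37.3 and 51.7 CPM with MC903+RGRN-305, at 17.9, 44.7, 114 and 32.2 CPM with dexamethasone, at 102, 114 and 142 CPM with MC903, and at 19.2, 21.2 and 26.9 CPM with vehicle. Dexamethasone mouse 3 was inside the MC903 range for Eif2ak2 and mouse 1 below all vehicle ears. Ifit3b was at 1.24, 2.16 and 8.03 CPM with MC903+RGRN-305, at 0.981, 3.58, 16.03 and 1.80 CPM with dexamethasone, at 22.1, 37.1 and 51.2 CPM with MC903, and at 1.09, 1.80 and 2.54 CPM with vehicle. Its RGRN-305 ears overlapped those of vehicle, and the 2 groups were not called apart (log2 fold change 0.72 ± 0.51, edgeR adjusted p = 0.23). Ifit3 and Ifit3b are near-identical copies, and some Slfn and Ifi200 genes resemble one another. Only uniquely aligned reads were counted, so reads that such genes share may have been dropped. Ifit2, Ifit3, Ddx60 and Isg20 were lower by log2 fold changes of −2.54, −2.68, −2.56 and −0.96 with RGRN-305 and of −2.03, −2.23, −2.64 and −0.87 with dexamethasone.

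Members acting on nucleotides and tRNA numbered 9. Rsad2 (viperin) makes a chain-terminating nucleotide from CTP, Cmpk2 is a mitochondrial nucleotide kinase, Samd9l restrains growth and translation, and schlafens (Slfn) include tRNA-cleaving proteins. Rsad2 was at 1.14, 4.06 and 23.7 CPM with MC903+RGRN-305, and at 0.368, 18.1, 83.7 and 4.23 CPM in dexamethasone mice 1 to 4. It was at 86.1, 141 and 211 CPM with MC903, and at 0.761, 1.04 and 1.42 CPM with vehicle. The lowest RGRN-305 ear lay in the vehicle range, the lowest dexamethasone ear lay below it, and the highest dexamethasone ear came within reach of the lowest MC903 ear. Its log2 fold change was −4.40 ± 0.67 with RGRN-305, the largest fall of the 44 members, and −2.45 ± 0.79 with dexamethasone, each against MC903 (edgeR adjusted p = 1.8e-05 and 0.014). Slfn4, a myeloid schlafen of mice, was at 3.32, 6.38 and 13.6 CPM with MC903+RGRN-305, at 1.43, 6.52, 29.9 and 2.94 CPM with dexamethasone, at 41.8, 106 and 211 CPM with MC903, and at 0.586, 1.296 and 1.58 CPM with vehicle. No drug ear reached the lowest MC903 ear, and dexamethasone mouse 1 was inside the vehicle range. Slfn4 fell by 4.00 ± 0.48 with RGRN-305 and by 3.61 ± 0.63 with dexamethasone on the log2 scale. Slfn2 was at 17.8, 29.4 and 52.2 CPM with MC903+RGRN-305, at 10.2, 30.8, 60.9 and 17.0 CPM with dexamethasone, at 116, 153 and 234 CPM with MC903, and at 5.65, 8.33 and 9.04 CPM with vehicle. All drug ears of Slfn2 were above all vehicle ears and below all MC903 ears. Slfn5 was at 25.2, 38.7 and 45.6 CPM with MC903+RGRN-305, at 17.7, 40.2, 74.4 and 28.4 CPM with dexamethasone, at 88.3, 123 and 178 CPM with MC903, and at 21.9, 26.5 and 32.4 CPM with vehicle. Both drug groups of Slfn5 overlapped vehicle, and neither was called apart from it (log2 fold changes 0.50 ± 0.22 and 0.59 ± 0.26, edgeR adjusted p = 0.056 and 0.06). Cmpk2, Samd9l, Slfn1, Slfn8 and Slfn9 were lower by between −3.47 (Cmpk2) and −1.33 (Slfn9) with RGRN-305, and by between −2.47 (Slfn1) and −0.85 (Slfn9) with dexamethasone.

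GTPases and membrane or secreted proteins numbered 9. Mx1 and Mx2 are dynamin-like GTPases against viruses, and BALB/c mice are known to carry a defective Mx1, so the counts speak of its transcripts only. Mx1 was at 2.80, 8.85 and 19.3 CPM with MC903+RGRN-305, and at 2.09, 24.1, 90.4 and 6.22 CPM in dexamethasone mice 1 to 4. It was at 92.7, 153 and 348 CPM with MC903, and at 0.864, 0.915 and 1.43 CPM with vehicle. No groups of Mx1 overlapped but those of the 2 drugs, although dexamethasone mouse 3 came close to the lowest MC903 ear. Its log2 fold change was −4.29 ± 0.56 with RGRN-305 and −2.58 ± 0.68 with dexamethasone, each against MC903, and 7.45 ± 0.79 for MC903 against vehicle (edgeR adjusted p = 3.1e-06, 0.0035 and 1.9e-08). Lgals9, the galectin-9 gene, was at 31.4, 41.1 and 57.7 CPM with MC903+RGRN-305, at 16.3, 38.3, 89.2 and 21.7 CPM with dexamethasone, at 98.3, 133 and 165 CPM with MC903, and at 19.9, 23.1 and 26.6 CPM with vehicle. Dexamethasone mouse 1 was below, and mouse 4 inside, the vehicle range of Lgals9. Tor3a, an ATPase of the endoplasmic reticulum, moved least of the 44, with log2 fold changes of −0.93 ± 0.14 and −0.51 ± 0.18 with RGRN-305 and dexamethasone and 0.80 ± 0.15 for MC903 against vehicle. Ifi27l2a was the member with the smallest spread among dexamethasone ears (SD 0.180 on the log2 scale), at 21.0, 23.6, 27.9 and 21.9 CPM, against a range of 69.1 to 111 CPM with MC903. The remaining members were Mx2, the immunity-related GTPase Ifi47, the virion tether Bst2, the receptor chaperone Rtp4 and the secreted glycoprotein Lgals3bp, with log2 fold changes between −2.88 (Mx2) and −2.10 (Lgals3bp) with RGRN-305, and between −2.64 (Bst2) and −1.76 (Mx2) with dexamethasone.

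ADP-ribosylation members numbered 4, and their shifts lay close together. Parp9 works in a complex with the ubiquitin ligase Dtx3l, and Parp12 and Parp14 attach single ADP-ribose units to proteins. Parp12 was at 32.7, 51.3 and 97.8 CPM with MC903+RGRN-305, at 22.3, 76.5, 188 and 39.5 CPM with dexamethasone, at 169, 212 and 241 CPM with MC903, and at 19.3, 19.8 and 23.5 CPM with vehicle. Parp9 was at 36.8, 61.2 and 121 CPM with MC903+RGRN-305, at 13.3, 72.0, 171 and 35.8 CPM with dexamethasone, at 168, 189 and 213 CPM with MC903, and at 12.4, 14.0 and 16.3 CPM with vehicle. For both genes dexamethasone mouse 3 was inside the MC903 range, and mouse 1 was inside the vehicle range for all 4 but Dtx3l and Parp14, where it was below it. Across the 4 members log2 fold changes ran from −1.95 to −1.49 with RGRN-305 and from −1.57 to −1.35 with dexamethasone, each against MC903, and from 3.33 to 3.75 for MC903 against vehicle. Parp9 and Dtx3l overlap on opposite strands of chromosome 16, and the strand setting of the counting is not given in the sources used here. The authors counted only unambiguous reads, so reads in the overlap may have been left out if strand was ignored. Exons on the opposite strand also overlap Isg15 (Gm46878), Tor3a (Abl2), Ifi27l2a (Ifi27), Ifi35 (Vat1), Slfn5 (Slfn5os) and other members.

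Nuclear and signalling members numbered 11. They comprise the nucleic-acid-binding Ifi203 and Ifi204, the nuclear-body protein Sp100, Phf11d, the helicase and coactivator Helz2, the partner proteins Nmi and Ifi35, the ubiquitin ligase Trim30a, Xaf1, which promotes cell death, Epsti1 and Ifi44. Ifi44 was at 2.49, 5.90 and 19.7 CPM with MC903+RGRN-305, and at 0.818, 13.3, 51.6 and 3.24 CPM in dexamethasone mice 1 to 4. It was at 86.7, 152 and 179 CPM with MC903, and at 0.305, 0.483 and 0.986 CPM with vehicle. Ifi44 thus had the largest rise of all members, and its lowest dexamethasone ear lay inside the vehicle range. Its log2 fold change was −4.10 ± 0.55 with RGRN-305 and −3.12 ± 0.69 with dexamethasone, each against MC903, and 8.03 ± 0.82 for MC903 against vehicle (edgeR adjusted p = 3.9e-06, 0.00082 and 1.1e-08). Ifi35 was at 32.1, 44.4 and 67.9 CPM with MC903+RGRN-305, at 17.5, 38.7, 89.8 and 24.8 CPM with dexamethasone, at 114, 132 and 144 CPM with MC903, and at 15.9, 17.9 and 19.0 CPM with vehicle. Ifi35 had the smallest spread of the members among MC903 ears (SD 0.111 on the log2 scale), and all its RGRN-305 ears were above all vehicle ears. Helz2 was at 5.59, 8.93 and 13.5 CPM with MC903+RGRN-305, at 11.1, 19.7, 49.7 and 14.1 CPM with dexamethasone, at 20.6, 40.4 and 65.1 CPM with MC903, and at 6.25, 10.7 and 14.8 CPM with vehicle. RGRN-305 ears of Helz2 lay in or below the vehicle range and below all MC903 ears, whereas dexamethasone mouse 3 was inside the MC903 range. The other 8 members had log2 fold changes between −2.81 (Phf11d) and −1.56 (Epsti1) with RGRN-305, and between −2.50 (Sp100) and −1.24 (Xaf1) with dexamethasone.

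**Figure D3:**
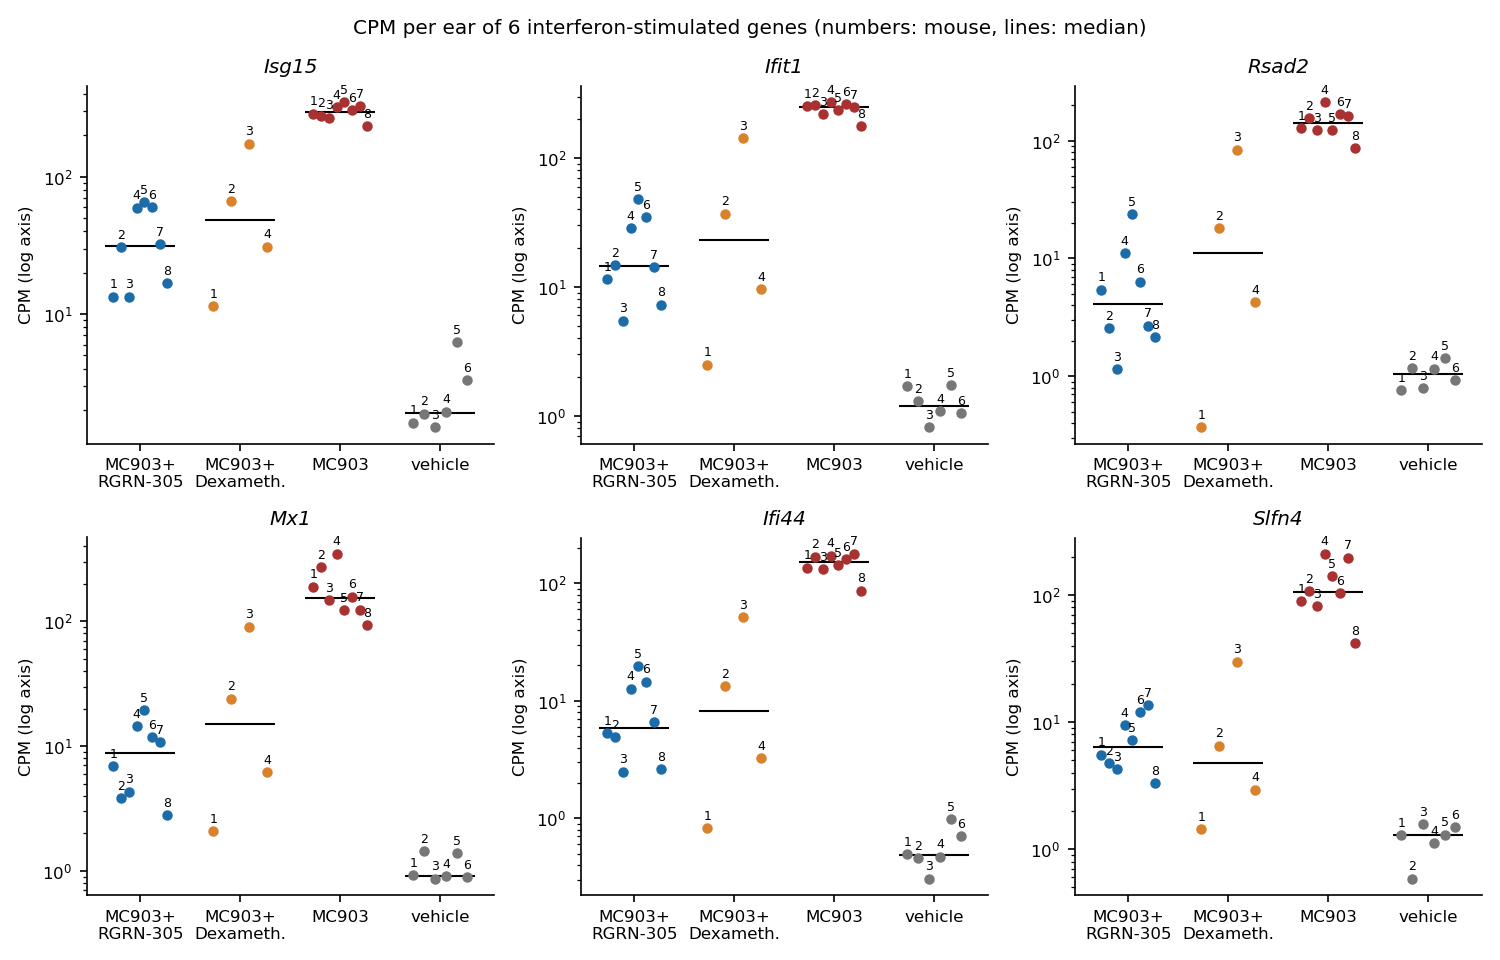
CPM per ear (log axis) of Isg15, Ifit1, Rsad2, Mx1, Ifi44 and Slfn4 in the 4 groups, with points numbered by mouse and a line at the group median. The MC903 ears cluster at the top, the 8 RGRN-305 ears form a band below them, and the 4 dexamethasone ears are spread over most of the distance between vehicle and MC903, with mouse 3 highest and mouse 1 lowest in each panel.

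Ear-to-ear spread differed between the groups. It was measured as the SD over ears of log2 CPM, with no test. The median SD of the 44 members was 0.523 with MC903+RGRN-305, 1.41 with MC903+Dexamethasone, 0.292 with MC903 and 0.337 with vehicle, beside 0.242, 0.218, 0.232 and 0.208 for all genes. The spread was larger with RGRN-305 than with MC903 in 38 of 44 members (86.4%), against 55.9% of all genes. It was larger with dexamethasone than with MC903 in 43 of 44 members (97.7%), against 44.8% of all genes, and Ifi27l2a was the exception. Rsad2, Ifi44 and Ifit1 had the largest SD in both drug groups, with 1.39, 1.10 and 1.09 with RGRN-305 and 3.20, 2.52 and 2.49 with dexamethasone, against 0.390, 0.337 and 0.197 with MC903. In CPM, the highest ear exceeded the lowest by a median factor of 2.96 with RGRN-305 (at most 20.8, Rsad2), of 9.86 with dexamethasone (at most 227, Rsad2) and of 1.94 with MC903. Without dexamethasone mouse 3 the SD was still larger than with MC903 in 39 members, with a median of 0.958.

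**Figure D4:**
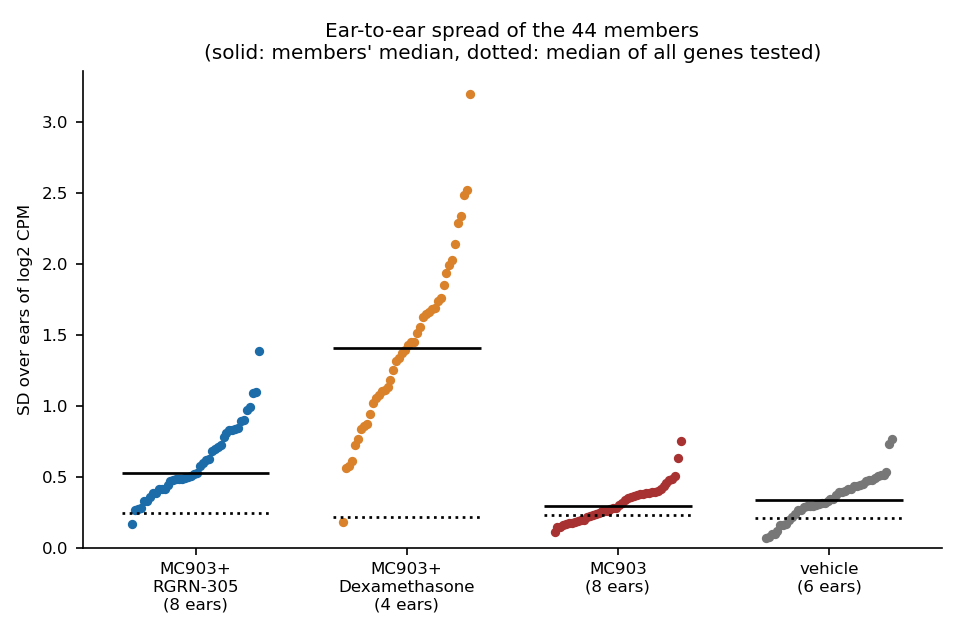
SD over ears of log2 CPM (y axis) for each of the 44 members (points, sorted within a group) in the 4 groups, with the members' median (solid line) and the median of all genes tested (dotted line). Members' medians are 0.523, 1.41, 0.292 and 0.337, whereas the dotted lines stay between 0.208 and 0.242.

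The same ears carried the spread from gene to gene. Among dexamethasone ears, mouse 3 was highest in 44 of 44 members and mouse 1 lowest in 43, the exception being Tor3a, with mouse 4 lowest. Mouse 1 was at or below the highest vehicle ear in 36 members, mouse 2 in 3, mouse 3 in 1 and mouse 4 in 17. Mouse 3 was at or above the lowest MC903 ear in 16 members, among them Usp18, Trim25, Eif2ak2, Cmpk2, all 4 ADP-ribosylation members and Helz2, and no other drug ear was so in any member. The dexamethasone libraries had 26596072, 24485376, 20625369 and 28838836 counts, so mouse 3 was the shallowest of its group.

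Among RGRN-305 ears the top place was shared. Mouse 6 was highest in 23 members, including Herc6, Eif2ak2, 4 schlafens, Ifi47, Bst2, Nmi, Ifi35 and all 4 ADP-ribosylation members. Mouse 5 was highest in 17, including Isg15, Usp18, all 4 Ifit genes, Rsad2, Cmpk2, Mx1, Helz2 and Ifi44. Mice 4 and 7 were highest in 2 each (Slfn9 and Mx2, and Slfn4 and Ifi204). Mouse 3 was lowest in 19 and mouse 8 in 11. The number of members at or below the highest vehicle ear was 11, 11, 18, 5, 2, 6, 9 and 14 in RGRN-305 mice 1 to 8, so each of these ears kept most members above vehicle. In MC903 ears mouse 8 was lowest in 38 members and mouse 4 highest in 20, and in vehicle ears mouse 5 was highest in 26.

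Some other transcripts were also at an extreme of their group in dexamethasone mouse 3 or in RGRN-305 mouse 6. Ptprc, the pan-leukocyte marker CD45, was at 10.2, 20.2, 31.4 and 13.1 CPM in dexamethasone mice 1 to 4. Fkbp5 and Tsc22d3, glucocorticoid-induced genes, were at 158 and 117 CPM in mouse 3, the lowest of its group, against 202 to 218 and 179 to 235 CPM in the other 3 ears. In MC903 ears the ranges were 53.4 to 63.0 CPM for Fkbp5 and 38.9 to 57.6 CPM for Tsc22d3, so mouse 3 was above all MC903 ears for both. RGRN-305 mouse 6 had the highest Ptprc level of its group, 40.5 CPM, and the highest summed T cell, neutrophil and NK cell markers, 13.9, 125 and 1.63 CPM. Its summed monocyte and macrophage markers, 288.1 CPM, were below those of mouse 2, 316.8 CPM. RGRN-305 mouse 5, highest in 17 members, had 25.2 CPM of Ptprc and the lowest summed neutrophil markers of its group, 32.4 CPM. Its summed T cell and NK cell markers, 8.75 and 1.26 CPM, lay inside the range of the other RGRN-305 ears. The part of these transcripts in the members' spread was not tested.

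Members were next compared between the drugs. In MC903+RGRN-305 against MC903+Dexamethasone ears, 4 members were called lower (17.8% of all genes) and 1 higher (17.6%), both shares of members being under the background. The median log2 fold change was −0.37, beside 0.01 for all genes, with 35 members below 0 and 9 above. The calls were Rsad2 (−1.94 ± 0.72, edgeR adjusted p = 0.039), Mx1 (−1.71 ± 0.60, 0.031), Helz2 (−1.45 ± 0.33, 0.0016) and Cmpk2 (−1.43 ± 0.55, 0.047), lower with RGRN-305, and Epsti1 (0.90 ± 0.27, 0.011), higher. Cmpk2 and Epsti1 are named because they were called, after their values were seen. Cmpk2 was at 1.86, 3.02 and 8.51 CPM with MC903+RGRN-305, and at 0.654, 7.34, 30.2 and 2.32 CPM in dexamethasone mice 1 to 4. Epsti1 was at 1.44, 1.94 and 2.58 CPM with MC903+RGRN-305, and at 0.450, 1.34, 1.64 and 0.736 CPM with dexamethasone. For none of the 44 members were the ears of the 2 drugs fully apart, against 9.47% of all genes lower and 9.09% higher.

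The order of the drugs rested on dexamethasone mouse 3. Without it, 38 members had a log2 fold change above 0 and 6 below, with a median of 0.47. The calls of Rsad2 (−0.14 ± 0.70), Mx1 (−0.20 ± 0.57) and Cmpk2 (0.11 ± 0.48) were then lost, with edgeR adjusted p of 0.90, 0.81 and 0.88. Helz2 (−0.80 ± 0.29, edgeR adjusted p = 0.039) remained lower with RGRN-305. Epsti1 (1.19 ± 0.29), Slfn1 (1.19 ± 0.40), Nmi (0.84 ± 0.32), Ifi35 (0.77 ± 0.20) and Lgals9 (0.75 ± 0.21) were then called higher with RGRN-305. Epsti1 was also the only member with all RGRN-305 ears above the remaining dexamethasone ears (13.2% of all genes), and none were all below (14.0%). Without dexamethasone mouse 1, in contrast, 13 members were called lower with RGRN-305 and none higher. Without RGRN-305 mouse 5, 8 were called, as Ifit3b, Mx2 and Tor3a were added, and without any one of the other RGRN-305 mice 2 to 5 were. The share of all genes called without a mouse is not given here, so these counts have no background of their own. With all ears, 17.8% of all genes were called lower and 17.6% higher. The drugs were given at different doses, so these values set 2 regimens side by side.

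**Figure D5:**
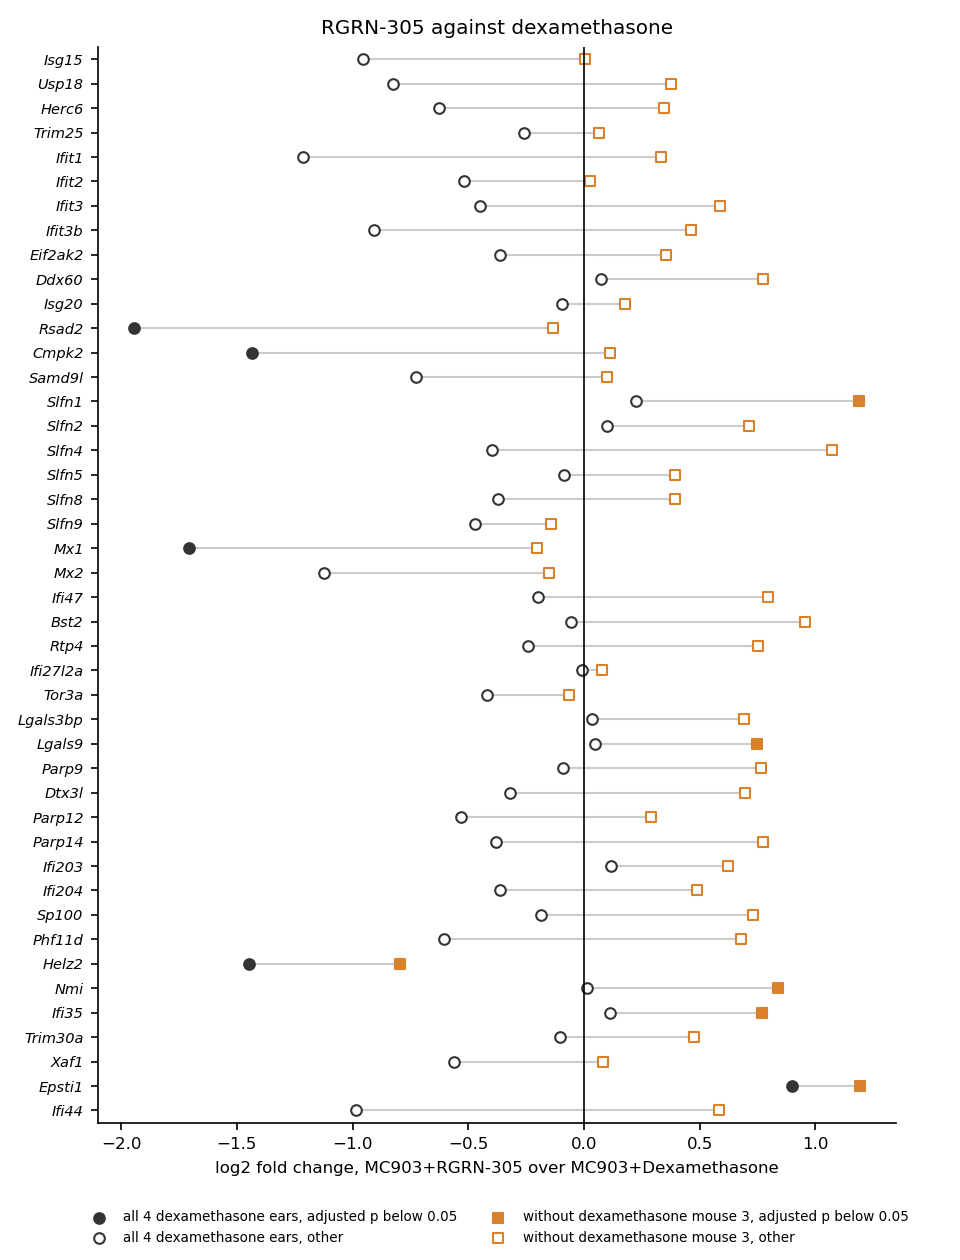
Log2 fold change of MC903+RGRN-305 over MC903+Dexamethasone (x axis) for each of the 44 members (y axis), with all 4 dexamethasone ears (dark circles) and without dexamethasone mouse 3 (orange squares), filled where the edgeR adjusted p was below 0.05. The squares lie to the right of the circles in every line, and 38 of them lie above 0, against 9 of the circles.

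Residual levels were compared with vehicle. In MC903+RGRN-305 against vehicle ears, 33 members were called higher, against 30.3% of all genes, and none lower, against 29.5%, with a median log2 fold change of 1.42 (highest 4.18, Slfn1). Of these, 20 passed a log2 fold change of 1.5, against 3.98% of all genes. For 25 members every RGRN-305 ear was above every vehicle ear, against 13.8% of all genes. The 11 members not called were Ifit2, Ifit3b, Isg20, Cmpk2, Samd9l, Slfn5, Ifi27l2a, Tor3a, Ifi203, Sp100 and Helz2, with log2 fold changes from −0.33 to 0.77. Ifit3 was lost without RGRN-305 mouse 5 (32 calls) and Slfn5 was added without mouse 3 (34 calls). All 4 ISG15-system members and all 4 ADP-ribosylation members were called higher, against 4 of 7 RNA-binding members.

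In MC903+Dexamethasone against vehicle ears, 35 members were called higher, against 26.4% of all genes, and none lower, against 29.4%, with a median log2 fold change of 1.76 (highest 5.23, Ifit1). Of these, 25 passed a log2 fold change of 1.5, against 4.79% of all genes. Every dexamethasone ear was above every vehicle ear for 8 members, against 19.7% of all genes, and for 8 without mouse 3, against 22.0%. Without dexamethasone mouse 3, 25 members were called, the median was 0.81, and 10 calls were lost (Cmpk2, Ddx60, Helz2, Herc6, Ifit3, Ifit3b, Lgals3bp, Lgals9, Nmi and Trim30a). Without mouse 1 there were 39 calls and without mouse 4 there were 38, with Samd9l, Slfn5 and Sp100 added in both and Isg20 in the first. Lgals3bp alone was lost without dexamethasone mouse 2 and without vehicle mouse 1, 2, 3, 4 or 5. With limma voom and a variance for each group, an alternative chosen after seeing the data, 26 were called.

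Ligands of the pathway were scarce. Of 18 type I interferon genes listed, 11 had no count in any library, and all 18 genes together had 4 counts in the 8 MC903+RGRN-305 libraries, 5 in the 4 dexamethasone libraries, 6 in the 8 MC903 libraries and 3 in the 6 vehicle libraries. No gene exceeded 3 counts in a library, which is also the limit that a count of 0 allows per gene and library, for counting error only. None passed the filter, and a difference was not detectable at this depth. Ifng, which encodes interferon gamma, was at 0.0810, 0.357 and 1.16 CPM with MC903+RGRN-305, and at 0.0409, 0.0432, 1.49 and 0 CPM in dexamethasone mice 1 to 4. It was at 1.27, 1.62 and 2.49 CPM with MC903 and at 0 in every vehicle ear. Ifng was called lower with RGRN-305 (log2 fold change −1.66 ± 0.61, edgeR adjusted p = 0.036) and with dexamethasone (−2.25 ± 0.83, 0.032), each against MC903. Dexamethasone mouse 3, highest in every member, was also the only ear of its group in the MC903 range for Ifng. RGRN-305 mice 2 and 7 had 1.01 and 1.16 CPM of Ifng, mouse 6, highest in 23 members, had 1.12 CPM, and mouse 5, highest in 17 members, had 0.0967 CPM. The type III interferon genes Ifnl2 and Ifnl3, which signal mainly in epithelia, were too low to be tested. Ifnl2 had 5 counts in all over the RGRN-305 libraries, 4 over the dexamethasone libraries, 43 over the MC903 libraries and 0 over the vehicle libraries, with a count in 7 of 8 MC903 ears. Ifnl3 had 2, 1, 17 and 0 counts in the same order of groups, also with a count in 7 of 8 MC903 ears.

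Receptor and signalling genes of the pathway were read from the same table. Of 6 interferon receptor genes, 4 were called lower with RGRN-305 and 2 with dexamethasone, each against MC903, beside 19.4% and 23.3% of all genes. In MC903 against vehicle ears 3 were called higher, beside 34.5% of all genes. Ifnar1 was at 31.1 to 39.5 CPM with MC903+RGRN-305, 35.5 to 41.4 CPM with dexamethasone, 37.1 to 47.5 CPM with MC903 and 37.2 to 49.3 CPM with vehicle. Its groups overlapped, and it was called lower with RGRN-305 than with MC903 (log2 fold change −0.25 ± 0.07, edgeR adjusted p = 0.0032) and not called with dexamethasone (−0.18 ± 0.08, 0.07). Ifnar2, Ifngr2 and Il10rb were also called lower with RGRN-305 (−0.66, −0.42 and −0.68), and Ifnar2 and Ifngr2 with dexamethasone (−0.92 and −0.97). Irf7, the factor that amplifies type I interferon production, was at 15.4, 31.8 and 57.9 CPM with MC903+RGRN-305, and at 12.7, 51.2, 139 and 25.5 CPM with dexamethasone. It was at 149.5, 260.0 and 299.8 CPM with MC903 and at 5.52, 7.73 and 8.33 CPM with vehicle. The ears of Irf7 stood in the order of many members, dexamethasone mouse 3 highest and mouse 1 lowest of their group. Irf1 was lower with RGRN-305 (−1.08, edgeR adjusted p = 0.022) and not called with dexamethasone (−1.08, edgeR adjusted p = 0.058), a difference between drugs that had a log2 fold change of 0.00 in its own test. Its dexamethasone ears were at 11.98, 57.7, 185.5 and 25.3 CPM in mice 1 to 4. Irf1 ranged from 37.1 to 124.0 CPM with RGRN-305, 117.7 to 176.8 CPM with MC903 and 12.97 to 20.2 CPM with vehicle. Dexamethasone mouse 3 was thus above all MC903 ears and mouse 1 below all vehicle ears.

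Many markers of infiltrating cells were, like the members, higher in MC903 than in vehicle ears and lower with either drug. Ptprc was at 22.1 to 40.5 CPM with MC903+RGRN-305, 10.2 to 31.4 CPM with dexamethasone, 63.4 to 97.6 CPM with MC903 and 13.9 to 26.7 CPM with vehicle. All 6 T cell and all 6 monocyte and macrophage markers, and all 4 tested of 5 neutrophil markers, were lower with either drug than with MC903 alone and higher in MC903 than in vehicle ears. Of 4 NK cell markers, 4 were lower with RGRN-305 and 3 with dexamethasone, and 4 were higher with MC903 against vehicle. Of all genes, 19.4% were called lower with RGRN-305 and 23.3% with dexamethasone, and 34.5% higher with MC903 against vehicle. Summed T cell markers ranged from 6.81 to 13.9 CPM with RGRN-305, 1.88 to 7.84 CPM with dexamethasone, 19.6 to 40.0 CPM with MC903 and 2.95 to 6.91 CPM with vehicle. Summed monocyte and macrophage markers ranged from 193.4 to 316.8, 182.2 to 285.2, 352.5 to 486.0 and 191.6 to 275.3 CPM in the same order of groups. Between the drugs, Ptprc and 5 of 6 T cell markers were called higher with RGRN-305 (17.6% of all genes), whereas no monocyte and macrophage marker was called. In dexamethasone against vehicle ears, Ptprc was not called, no T cell marker was higher and 1 was lower. Of the monocyte and macrophage markers 2 were higher and 1 lower, and of the neutrophil markers 3 were higher and 1 lower. Among NK cell markers 1 was higher and 0 lower. In the same comparison 35 members were higher (25 without dexamethasone mouse 3). Of all genes, 26.4% were called higher and 29.4% lower there. Of 3 B cell markers only 1 was tested, and it was not called with either drug against MC903. Siglech, a defining marker of plasmacytoid dendritic cells, which are strong producers of type I interferon, was at 0.696 to 1.59 CPM with RGRN-305, 0.245 to 1.38 CPM with dexamethasone, 1.85 to 7.33 CPM with MC903 and 2.31 to 3.99 CPM with vehicle. It was called lower with both drugs against MC903, and was not called for MC903 against vehicle (log2 fold change 0.39, edgeR adjusted p = 0.20). The 4 markers listed for these cells did not move together, with 1 called higher (Cox6a2) and 2 lower (Siglech and Pacsin1) with each drug against MC903, and 2 higher (Ccr9 and Pacsin1) and 1 lower (Cox6a2) with MC903 against vehicle. Their summed level was 13.1 to 23.8 CPM with RGRN-305, 22.1 to 27.5 CPM with dexamethasone, 15.9 to 23.6 CPM with MC903 and 20.7 to 34.4 CPM with vehicle, so each drug group overlapped MC903. Changes in cell make-up and changes within cells cannot be told apart here.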

How the data were processed

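RNA from 26 mouse ears was sequenced. The authors made the deposited table of counts per gene with Subread 2.10.3 on GRCm39 (submitters' notes), and whether counting used strand is not given in the sources used here. Identifiers were mapped to symbols through GENCODE mouse release 39. Samples were grouped by their labels. One edgeR 4.0.16 quasi-likelihood model (robust, TMM) in R 4.3.3 was fitted to all groups after filterByExpr (minimum count 10, total 15), with Benjamini-Hochberg adjustment over 20167 genes and a threshold of 0.05. CPM used TMM library sizes, and log2 CPM a prior count of 2. The fit was tested on simulated data. Alternatives used DESeq2 1.42.0, limma 3.58.1 (voom, added after seeing the data), other filters, single-replicate exclusions and a replicate block. Members and gene lists were chosen with earlier results of these data known. Values are given for the 2 most abundant members of each role group. They are also given for the 3 largest changes per comparison, the 3 largest SDs per drug group and other members where stated. In the text, dexamethasone ears are mostly given singly and other groups mostly by lowest, median and highest ear. Depth was 13695023 to 35130972 counts, which limits low values by counting error. Labels number the libraries within a group, each taken as 1 separate mouse. The p-values weigh differences between groups against the spread between these mice. Figures were drawn with matplotlib 3.10.9. Some items are not reported here.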

Additional observations from a re-analysis of the deposited data

Results flagged for a closer look

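Of 176 sets of member values (44 members in 4 groups), 6 held an ear far from the rest by Dixon's test (dexamethasone, with 4 ears, included), where chance flags about 1 in 20. In MC903 mouse 8 the log2 CPM was lowest and apart for 4 members, with 6.76 for Bst2 (next ear 7.22), 6.05 for Lgals3bp (6.65), 5.81 for Sp100 (6.33) and 6.44 for Ifi44 (7.05). The same ear was lowest of its group in 38 of 44 members. Tor3a was highest and apart in RGRN-305 mouse 5, at a log2 CPM of 5.60 (next ear 5.09). Slfn4 was lowest and apart in vehicle mouse 2, at −0.57 (next ear 0.27), a library of 13695023 counts. No dexamethasone ear was set apart in this way, but with 4 ears the test asks for a wider gap than in the larger groups. Dexamethasone mouse 3 was highest of its group in 44 members and mouse 1 lowest in 43.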

How the results depend on the processing

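The 44 calls of MC903 against vehicle and of RGRN-305 against MC903 held without any single replicate (44 to 44). Those of dexamethasone against MC903 ranged from 39 to 44, those of RGRN-305 against vehicle from 32 to 34 and those of dexamethasone against vehicle from 25 to 39. For these fits and for those between the drugs, the share of all genes called is not given here. Between the drugs the 5 calls ranged from 2 to 13, and the median log2 fold change from −0.65 to 0.47. They were 2 with limma voom and a variance per group (median 0.08, chosen after seeing the data), 2 with no filter on low counts, 2 with only the groups compared in the fit, 2 with the replicate block and 2 with a log2 fold change beyond 1.5, and the cause was not tested. Cmpk2 changed sign between the drugs without dexamethasone mouse 3 (0.11, range −1.83 to 0.11 without 1 mouse each). With a log2 fold change beyond 1.5, 20 members passed for RGRN-305 against vehicle. Replicate numbers did not pair the mice: correlations of same-numbered deviations ran from −0.342 to 0.286, with 8 of 32 above 0.1. The replicate block moved no other count of calls by more than 1.5 times. DESeq2 gave Ifit1 no adjusted p. Depth limits genes at a few counts, such as the type I interferons.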
